A study of Mus musculus with 6 samples.

Results

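The 10 genes described here encode the central steps by which insulin moves glucose into a cell: the insulin receptor (*Insr*), its adaptors (*Irs1*, *Irs2*), a regulatory subunit of phosphoinositide 3-kinase (*Pik3r1*), the AKT kinases (*Akt1*, *Akt2*), the AKT substrates *Foxo1* and *Tbc1d4*, and the glucose transporters *Slc2a1* (GLUT1) and *Slc2a4* (GLUT4). They were chosen by symbol, each matched a single row, and they are 10 of the 47729 genes listed. RNA was sequenced from brown adipose tissue (BAT) of 6 male wild type C57BL/6J mice, 3 fed a 45% high-fat diet (HFD) and 3 fed a low-fat diet (LFD), which the sample labels call a standard rodent diet. Feeding ran from 6 to 10 weeks of age. Each library is the BAT of a single mouse, and the mice of each diet had been picked across the range of fat mass in a larger cohort, but which library came from which of them is not given in the sources used here. All 10 genes passed the filter on low counts, and their expected counts, RSEM's estimates of reads per gene, ran from 180 to 11508 per library.

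Insulin binding makes the receptor phosphorylate the IRS adaptors, which recruit phosphoinositide 3-kinase and, through its lipid product, activate AKT. AKT phosphorylates TBC1D4, which lets GLUT4 vesicles reach the cell surface, and it keeps the transcription factor FOXO1 out of the nucleus. In brown fat this route brings in glucose as fuel for heat and for fat synthesis, whereas GLUT1 carries glucose without needing insulin. Much of the control is on the proteins, by phosphorylation and position in the cell, which RNA levels do not measure.

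The promoters of *Irs1* and *Irs2* are shown because of their motifs. Of the 8 members with a promoter entry, only these adaptors held an E-box (CACGTG) or the insulin response element core (TGTTTTG). In both promoters the motifs lay side by side. Each line gives the 250 bases before the RefSeq start in GRCm38.p6, read 5′ to 3′ on the minus strand, with the matches in capitals. The *Irs1* stretch is chr1:82291440-82291689 and the *Irs2* stretch is chr8:11008930-11009179.
Irs1: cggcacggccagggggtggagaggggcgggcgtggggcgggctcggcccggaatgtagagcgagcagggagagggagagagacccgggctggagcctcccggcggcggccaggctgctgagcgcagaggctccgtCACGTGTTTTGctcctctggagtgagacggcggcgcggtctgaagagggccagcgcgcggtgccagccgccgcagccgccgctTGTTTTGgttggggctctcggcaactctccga
Irs2: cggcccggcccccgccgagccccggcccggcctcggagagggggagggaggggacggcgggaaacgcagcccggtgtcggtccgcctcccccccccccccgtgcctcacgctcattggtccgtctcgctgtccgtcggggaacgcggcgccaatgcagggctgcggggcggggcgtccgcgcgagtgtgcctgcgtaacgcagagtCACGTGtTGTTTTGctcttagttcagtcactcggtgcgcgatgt
In *Irs1* the motifs overlapped by 2 bases, and a further TGTTTTG began 32 bases before the start. In *Irs2* a single base lay between them. Searched on both strands over 250 bases, 6.02% of 32851 RefSeq promoter entries held the E-box and 5.56% held TGTTTTG. Only 14 entries (0.04%) held both within 10 bases of each other, a distance chosen after the matches had been seen. The FOXO core TGTTTAC was found in 3.17% of entries and, among the 8 members searched, only in *Akt1*. The GC box (GGGCGG) was in 32.74% of entries and in all 8 members with a promoter entry. A match of letters describes the sequence and shows no binding.

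The libraries held 17157059 to 21603566 counts each. Markers of other cells differed strongly between them, which bears on every member because in bulk tissue fewer cells of a type and less RNA per cell cannot be told apart. In TPM (transcript level scaled for gene length and library size), the summed skeletal muscle markers were at 151.68, 431.64 and 42.5 in the HFD mice, numbered 1, 2 and 3 here and below. In LFD mice 1, 2 and 3 they were at 6646.64, 16035.4 and 2337.34, and all 20 markers had the lower mean in HFD. The adipocyte markers summed to between 5903.42 and 9239.78 in HFD, against 27297.2, 26738 and 6137.64 in LFD. All 10 had the lower mean in HFD, but only 1, *Cfd*, did not overlap between the diets. *Cfd* alone was at 1053.94, 458.86 and 351.14 TPM in HFD and 9101.08, 10849.5 and 1674.01 TPM in LFD. A value set against this sum therefore depends strongly on *Cfd*. *Ucp1*, the uncoupling protein that defines brown adipocytes, was at 2728, 4021 and 796 TPM in HFD and at 443, 11.03 and 76.0 in LFD. The 10 brown adipocyte markers summed to 5057.39, 6403.94 and 1651.01 TPM in HFD and 1835.64, 567.37 and 297.37 TPM in LFD, with the higher mean in HFD for 7 of them. *Adrb3*, *Ebf2* and *Zic1* had the lower mean in HFD, and *Adrb3* was highest in LFD replicate 2, at 108.41 TPM, where *Ucp1* was lowest. T and NK cell markers had the higher mean in HFD in 12 of 12 genes, and macrophage marker sums overlapped. Mitochondrially encoded genes took 3.87% to 22.7% of the counts, more in HFD in each same-numbered pair. No marker was at 0 in every library, and the part these differences play in the members' values was not tested.

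Against that background, the clearest differences among the members were at the adaptor and phosphoinositide 3-kinase steps, where *Irs1* and *Pik3r1* were lower in HFD. Neither passed the test over all genes. The main test was edgeR's quasi-likelihood test, and a call needed both an adjusted p below 0.01 and a log2 fold change beyond 1.5 in either direction. That rule called 0 of the 10 members and 0 of the 17670 genes tested (0%). At an unadjusted p under 0.05, 2 members were lower in HFD and 0 were higher, while 6.62% of all genes tested were lower and 3.86% were higher. DESeq2 with the same limits also called 0 members, against 2.03% of the genes it tested. The members' median log2 fold change was -0.43, with 9 of 10 negative, beside a median of -0.05 over all genes tested, of which 54.3% were negative. The plot of log2 fold changes shows that the 95% intervals of 8 members include 0.

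**Figure D1:**
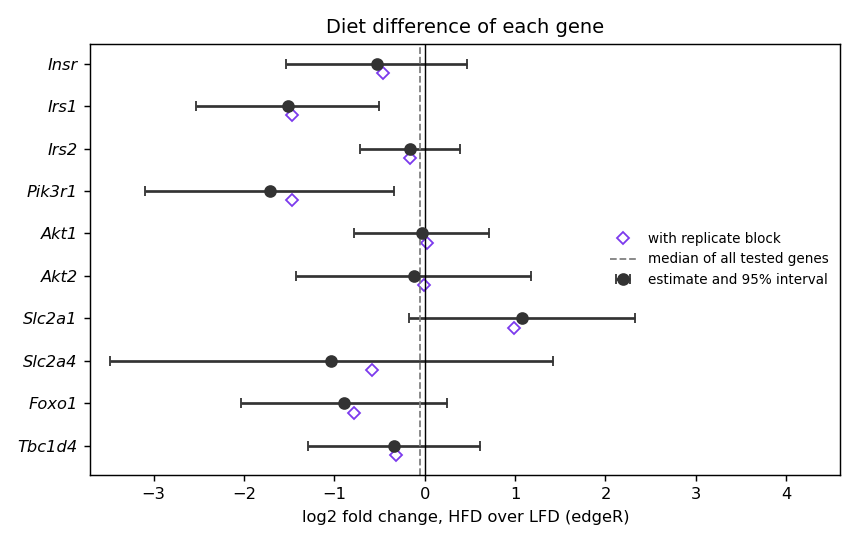
Log2 fold change (HFD over LFD) of each member from edgeR, filled points with 95% confidence intervals over 3 mice per diet, with the estimate under the replicate block as open diamonds and the median of all tested genes as a dashed line. Only the intervals of *Irs1* and *Pik3r1* lie wholly below 0, and that of *Slc2a4*, from -3.49 to 1.42, is the widest.

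*Insr* encodes the receptor itself (chromosome 8, 3122061 to 3279617, minus strand, GRCm38). In TPM its level was 18.38, 34.32 and 20.25 in HFD and 31.3, 56.39 and 26.8 in LFD. The diets overlapped, and replicate 2 was the highest mouse of both. It had a log2 fold change of -0.53 (SE 0.42), with an edgeR adjusted p of 0.757. Leaving out LFD replicate 3 gave -0.85 and leaving out HFD replicate 3 gave -0.31.

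*Irs1* (chromosome 1, 82233101 to 82291416, minus strand) encodes a main adaptor between the receptor and phosphoinositide 3-kinase. It was at 5.47, 7.13 and 4.57 TPM in HFD and at 13.96, 31.54 and 13.97 TPM in LFD. Every HFD mouse was below every LFD mouse. *Irs1* was the only member whose log2 CPM (counts scaled by library size) did not overlap between the diets. Of all genes tested, 15.9% did not overlap, 9.22% with HFD below LFD. Its fitted log2 fold change was -1.52 (SE 0.42, 95% interval -2.53 to -0.51), or 2.86-fold lower in HFD. The unadjusted p was 0.00945 and the edgeR adjusted p 0.284. DESeq2 gave an adjusted p of 0.0482, a level under which 3.71% of its genes fell.

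In TPM, replicate 2 was the highest library of its diet for *Irs1* and for the skeletal muscle markers in both diets, though in log2 CPM HFD replicate 1 was the highest HFD library for *Irs1*, and HFD replicate 3 was the lowest of all for both. Without LFD replicate 2, the library with the most muscle marker RNA and the least *Ucp1*, the log2 fold change of *Irs1* was -1.20 and the edgeR adjusted p 0.663. That adjusted p was 0.393, 0.720 and 0.719 without HFD replicates 1, 2 and 3. Without LFD replicates 1 and 3 it was 0.272 and 0.0721. Set against the summed adipocyte markers, a scale chosen after the values had been seen, *Irs1* was at 0.624, 0.772 and 0.774 TPM per 1000 marker TPM in HFD and at 0.511, 1.18 and 2.28 in LFD. On that scale the diets overlapped. *Irs1* also shares 2822 exon bases with *Gm9747* on the other strand, whose counts were 24 to 51 in HFD and 48 to 190 in LFD, and whether the counting used strand is not given in the sources used here.

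*Irs2* (chromosome 8, 10984681 to 11008458, minus strand), the other widely expressed adaptor, was at 4.21, 7.45 and 9.67 TPM in HFD and 6.23, 11.83 and 9.28 TPM in LFD. The ranges overlapped, and the log2 fold change was -0.16 (SE 0.23), with an interval from -0.72 to 0.39. The edgeR adjusted p was 0.892, and the fold change ran from -0.30 without HFD replicate 3 to -0.05 without LFD replicate 2.

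Because both adaptors are read in the same library, their ratio needs no scaling between mice. *Irs1* TPM over *Irs2* TPM was 1.299, 0.957 and 0.473 in HFD and 2.24, 2.67 and 1.51 in LFD. The 3 HFD ratios were all below the 3 LFD ratios, with a mean difference of -1.31 on the log2 scale. The exact two-sided permutation test gave p = 0.1, the smallest that 3 mice against 3 allow, and 0.3 after adjustment over the 3 ratios tested. The adaptors with adjacent E-box and TGTTTTG motifs, shown above, thus had fitted log2 fold changes of -1.52 and -0.16.

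**Figure D2:**
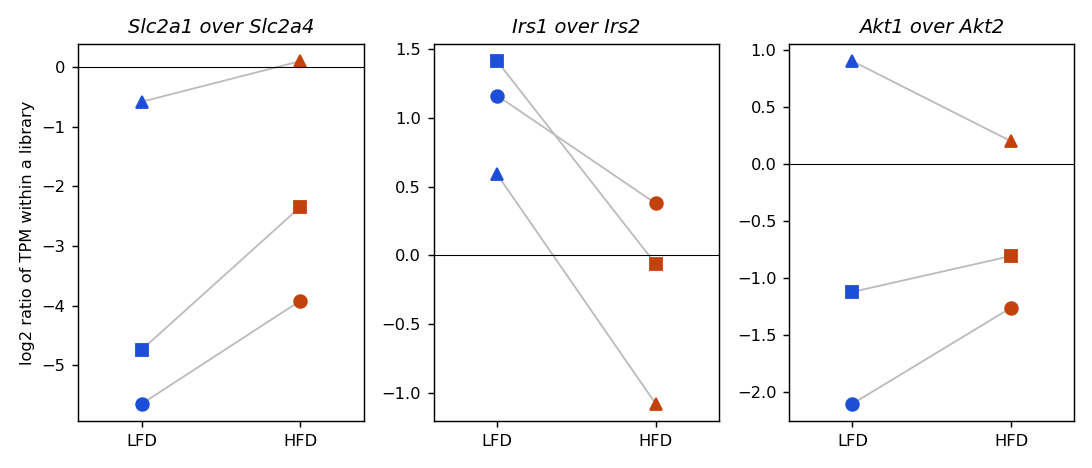
Log2 ratio of TPM within each library for *Slc2a1* over *Slc2a4*, *Irs1* over *Irs2* and *Akt1* over *Akt2*, 1 point per mouse, with LFD in blue, HFD in red, circles, squares and triangles for replicates 1, 2 and 3, and grey lines joining same-numbered mice. Only the *Irs1* over *Irs2* ratios do not overlap, with log2 values of -1.08 to 0.38 in HFD and 0.59 to 1.41 in LFD.

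*Pik3r1* (chromosome 13, 101680563 to 101768217, minus strand) encodes the regulatory subunits that bring the catalytic subunit to the phosphorylated adaptors. It was at 42.28, 51.68 and 38.49 TPM in HFD and at 173.33, 186.36 and 62.76 TPM in LFD. The HFD mice lay close together (44.2 ± 6.79, SD, n = 3), and LFD replicate 3 was far nearer to them than to the other LFD mice. The log2 fold change was -1.71 (SE 0.58, 95% interval -3.09 to -0.34), or 3.28-fold lower in HFD. The unadjusted p was 0.0218 and the edgeR adjusted p 0.375, and DESeq2 gave an adjusted p of 0.0893.

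In log2 CPM the *Pik3r1* values of the diets overlapped, unlike in TPM. LFD replicate 3 was also the LFD library with the lowest adipocyte marker sum. Per 1000 TPM of those markers, *Pik3r1* was at 4.82, 5.59 and 6.52 in HFD and 6.35, 6.97 and 10.2 in LFD, where the HFD mouse was lower in each of the 3 same-numbered pairs but the ranges overlapped. Without LFD replicate 1 the log2 fold change was -1.16.

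**Figure D3:**
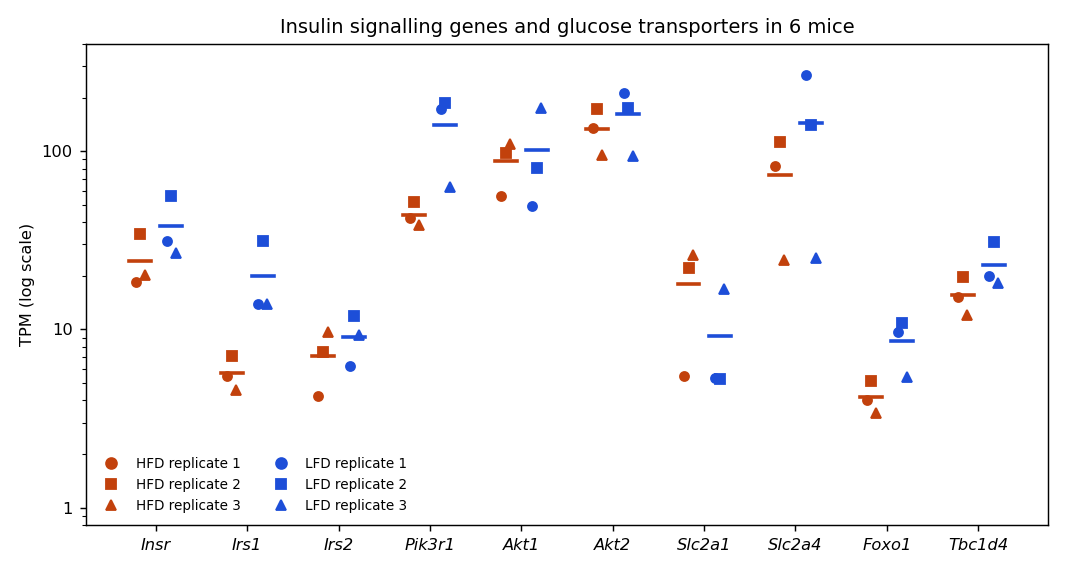
TPM of the 10 members in every mouse on a log axis, HFD and LFD side by side, with a line at each diet mean. The HFD points of *Irs1*, *Pik3r1* and *Foxo1* lie below all their LFD points, and *Slc2a4* spreads from 24.57 to 268.07 over the 6 mice. In log2 CPM only *Irs1* kept this separation, and the share of all genes separated in TPM was not counted.

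The AKT kinases had fitted fold changes near 0. *Akt1* (chromosome 12, 112653821 to 112674884, minus strand), the more general isoform in growth, was at 56.33, 98.23 and 109.57 TPM in HFD and 49.4, 80.73 and 175.88 TPM in LFD. *Akt2* (chromosome 7, 27591552 to 27640826, plus strand), the isoform tied to glucose uptake in fat and muscle, was at 135.13, 171.97 and 95.4 TPM in HFD and 212.56, 175.84 and 94.05 TPM in LFD. In both genes the LFD mice spanned the HFD mice. The log2 fold change was -0.03 (SE 0.31) for *Akt1* and -0.12 (SE 0.55) for *Akt2*, with edgeR adjusted p of 0.987 and 0.971. On the scale of adipocyte markers used above, *Akt2* was at 15.4, 18.6 and 16.2 TPM per 1000 marker TPM in HFD and 7.79, 6.58 and 15.3 in LFD. It was the only member whose diets did not overlap on that scale, with HFD above LFD. The margin was narrow, at 15.4 in HFD replicate 1 against 15.3 in LFD replicate 3. The share of all genes not overlapping on that scale was not counted. The marker sums themselves were higher in LFD in each same-numbered pair. The *Akt2* interval, from -1.43 to 1.18, leaves room for changes of more than 2-fold either way. The ratio of *Akt1* to *Akt2* was 0.417, 0.571 and 1.15 in HFD and 0.232, 0.459 and 1.87 in LFD, and differed by 0.15 on the log2 scale (exact two-sided permutation test, p = 0.9, adjusted p = 0.9).

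Of the AKT substrates, *Foxo1* (chromosome 3, 52268336 to 52353221, plus strand), the transcription factor that AKT holds in check, was at 4.04, 5.11 and 3.4 TPM in HFD and 9.7, 10.8 and 5.43 TPM in LFD. The TPM values did not overlap, whereas log2 CPM did. The log2 fold change was -0.89 (SE 0.48, 95% interval -2.04 to 0.25), with an edgeR adjusted p of 0.587. Without LFD replicate 1 it was -0.43.

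*Tbc1d4* (chromosome 14, 101442360 to 101609191, minus strand), the brake on GLUT4 vesicles that AKT releases, was at 15.25, 19.72 and 12.03 TPM in HFD and 19.92, 30.76 and 18.22 TPM in LFD. The highest HFD mouse lay just under the second highest LFD mouse, so the ranges overlapped. A log2 fold change of -0.33 (SE 0.40) was fitted, with an edgeR adjusted p of 0.859. It ran from -0.62 without LFD replicate 3 to -0.09 without HFD replicate 3.

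The transporters had opposite signs. *Slc2a4* (chromosome 11, 69942539 to 69948188, minus strand), the insulin-responsive transporter, was at 82.54, 112.45 and 24.57 TPM in HFD and at 268.07, 140.68 and 25.26 TPM in LFD. Replicate 3 was low in both diets, and LFD replicate 1 stood high. Its log2 fold change was -1.03 (SE 1.03, 95% interval -3.49 to 1.42), with an edgeR adjusted p of 0.824. Its sign turned to 0.26 without LFD replicate 1, so no direction can be read from it.

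The mice fell in the same order for *Slc2a4* as for the summed adipocyte markers within LFD and within HFD. The summed brown adipocyte markers had that order too. Per 1000 TPM of the summed adipocyte markers, not of the brown adipocyte markers, *Slc2a4* was at 9.41, 12.2 and 4.16 in HFD and at 9.82, 5.26 and 4.12 in LFD. On this scale 2 of the 3 same-numbered pairs were higher in HFD.

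*Slc2a1* (chromosome 4, 119108711 to 119137983, plus strand), the transporter for basal uptake that endothelium also carries, was the only member with a positive log2 fold change. It was at 5.47, 22.18 and 26.3 TPM in HFD and at 5.37, 5.28 and 16.87 TPM in LFD. HFD replicate 1 was at the level of the lower LFD mice, so the ranges overlapped. Its log2 fold change was 1.07 (SE 0.52, 95% interval -0.18 to 2.32), with an unadjusted p of 0.0816 and an edgeR adjusted p of 0.541. The endothelial marker sum was at 128.97, 429.32 and 563.9 TPM in HFD, the order of *Slc2a1*. The macrophage and the T and NK cell marker sums had that order in HFD as well. In LFD the endothelial sum was at 164.58, 249.79 and 324.91 TPM, which *Slc2a1* in replicates 1 and 2 did not follow. Of the 10 endothelial markers, 9 had the higher mean in HFD.

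**Figure D4:**
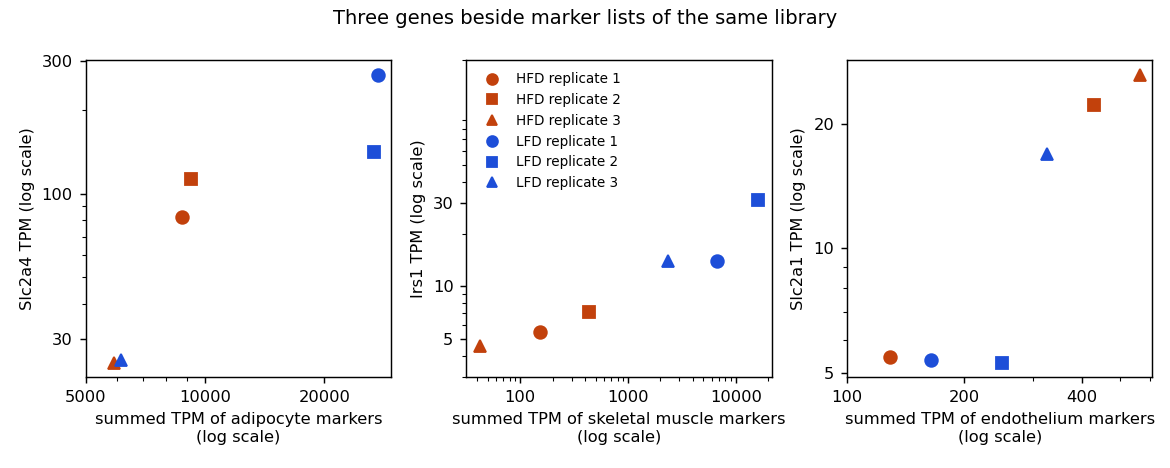
TPM of *Slc2a4*, *Irs1* and *Slc2a1* in each mouse against the summed TPM of adipocyte, skeletal muscle and endothelium markers of the same library, both axes on log scales, 1 point per mouse with color for diet and shape for replicate number. The 6 points share their library with the markers they are plotted against, and the muscle sums lie at or below 431.64 in HFD and at or above 2337.34 in LFD.

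*Slc2a1* over *Slc2a4* was 0.0663, 0.197 and 1.07 in HFD and 0.0200, 0.0375 and 0.668 in LFD. The ratio was higher in HFD in all 3 same-numbered pairs, but replicate 3 was high in both diets and the ranges overlapped. The mean difference was 1.60 on the log2 scale (exact two-sided permutation test, p = 0.5, adjusted p = 0.75). It was 0.52 without HFD replicate 3 and 3.14 without LFD replicate 3.

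Ordered by level per length, *Akt2* was the highest member in both diets, at a mean of 134 TPM in HFD and 161 TPM in LFD, and *Foxo1* the lowest. In HFD the order after *Akt2* was *Akt1*, *Slc2a4*, *Pik3r1*, *Insr*, *Slc2a1*, *Tbc1d4*, *Irs2*, *Irs1* and *Foxo1*. Of these 9 steps, all 3 mice kept the order only from *Pik3r1* to *Insr*, from *Tbc1d4* to *Irs2* and from *Irs1* to *Foxo1*. In LFD the order was *Akt2*, *Slc2a4*, *Pik3r1*, *Akt1*, *Insr*, *Tbc1d4*, *Irs1*, *Slc2a1*, *Irs2* and *Foxo1*, where all 3 mice kept only the steps from *Akt1* to *Insr* and from *Insr* to *Tbc1d4*. For the other neighbours the order was not the same in all 3 mice, and differences between members were not tested. The spread was widest for *Slc2a4* in LFD, with a coefficient of variation of 83.95%, and narrowest for *Pik3r1* in HFD, at 15.4%.

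When mice were compared within replicate numbers, *Insr*, *Irs1*, *Pik3r1*, *Slc2a4*, *Foxo1* and *Tbc1d4* were lower in HFD in all 3 pairs, 6 of the 10 members. *Slc2a4* was all but tied in pair 3, at a log2 CPM of 4.8595 in HFD and 4.86299 in LFD. Over all genes tested, 21.3% were lower and 21.1% higher in all 3 pairs. In the blocked fit, 0 members reached an adjusted p under 0.05, and 0.17% of all genes were higher and 0.877% lower at that level. At an unadjusted p under 0.05 the same fit had 3 members lower (*Irs1*, *Pik3r1* and *Foxo1*) and 0 higher, against 8.76% lower, 8.75% higher and 17.5% in either direction over all genes.

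The other genes of the pathway were read from 8 lists holding 78 genes, of which 72 were tested. edgeR called 0 of them. At an unadjusted p under 0.05, 5 were higher and 5 lower in HFD, where 3.86% and 6.62% of all genes tested were, their median log2 fold change was -0.09, and DESeq2 with the same limits also called 0. The fold changes were positive in 30 and negative in 42, and 54.3% of all genes tested were negative.

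Among the receptor adaptors and brakes (9 of 10 tested, 3 positive and 6 negative, 1 higher at an unadjusted p under 0.05), *Grb14* encodes an adaptor that inhibits the receptor's kinase. It was at 40.27, 32.09 and 18.22 TPM in HFD and 9.71, 10.12 and 3.82 TPM in LFD, every HFD mouse above every LFD mouse, which 6.72% of all genes tested also showed. The log2 fold change was 2.14 (SE 0.64), with an edgeR adjusted p of 0.319, and 0.0313 with the replicate block. DESeq2 gave an adjusted p of 0.0393. *Grb10*, a related brake, was at 38.52, 45.59 and 37.06 TPM in HFD and 26.06, 78.57 and 245.34 TPM in LFD, with a log2 fold change of -1.16.

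Of the phosphoinositide 3-kinase subunits and lipid phosphatases (9 of 9 tested, 4 positive and 5 negative), *Pik3r2*, another regulatory subunit, was at 11.6, 14.89 and 14.17 TPM in HFD and 15.25, 22.13 and 39.23 TPM in LFD. The groups did not overlap and the log2 fold change was -0.81 (edgeR adjusted p 0.319). *Pik3cb*, a catalytic subunit, had a log2 fold change of -0.91. Among the AKT kinases, their activators and brakes (9 of 9 tested, 7 positive and 2 negative), *Phlpp2*, a phosphatase that removes an activating phosphate from AKT, was at -0.73 (edgeR adjusted p 0.350) and its relative *Phlpp1* at 0.38, both on the log2 fold scale.

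In the lists of AKT substrates and of GLUT4 traffic, no gene reached an unadjusted p under 0.05. Of 12 AKT substrates and mTORC1 genes tested, 2 were positive and 10 negative. *Akt1s1*, an mTORC1 inhibitor that AKT phosphorylates, had a log2 fold change of -0.48 and *Foxo3* one of -0.29. All 13 genes of GLUT4 vesicle traffic were tested, 7 positive and 6 negative, with *Tbc1d1*, a relative of *Tbc1d4*, at 0.71 and the vesicle SNARE *Vamp2* at -0.48. Of 8 other facilitative transporters tested, 6 were negative, including *Slc2a12* at -1.64 and *Slc2a3*, the neuronal-type GLUT3, at -0.95 on the log2 fold scale.

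Known targets of FOXO factors had fold changes of both signs. Of 9 tested, 3 were positive and 6 negative, with a median log2 fold change of -0.18. At an unadjusted p under 0.05, 3 were higher in HFD and 1 lower, where 3.86% and 6.62% of all genes tested were. *Foxo1* itself had a negative log2 fold change. *Bcl6*, a transcriptional repressor, was at 19.01, 13.29 and 15.27 TPM in HFD and 6.1, 12.3 and 9.32 TPM in LFD, with a log2 fold change of 1.13. *Fbxo32*, a ubiquitin ligase of muscle wasting, was at 1.24, 2.95 and 2.04 TPM in HFD and 5.1, 25.5 and 3.19 TPM in LFD, with its highest value in the library with the most muscle marker RNA, and a log2 fold change of -2.21.

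The other FOXO targets higher in HFD at an unadjusted p under 0.05 were *Pdk4* and *Ccng2*, named after their values had been seen. *Pdk4*, a kinase that shuts off pyruvate dehydrogenase and so spares glucose, was at 294, 396 and 247 TPM in HFD and 114, 107 and 26.9 TPM in LFD. Every HFD mouse was above every LFD mouse, and the log2 fold change was 1.99 (edgeR adjusted p 0.409). *Ccng2*, an atypical cyclin, had a log2 fold change of 0.83.

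Of the hexokinases, which trap glucose in the cell, 3 were tested. *Hk3*, typical of myeloid cells, was at 9.87, 23.03 and 52.16 TPM in HFD and 1.2, 8.21 and 15.55 TPM in LFD, with a log2 fold change of 2.05 (edgeR adjusted p 0.394). The *Hk3* TPM values overlapped between the diets. In log2 CPM every HFD mouse was above every LFD mouse, as in 6.72% of all genes tested. The macrophage marker sums overlapped in TPM, and 7 of the 12 macrophage markers had the higher mean in HFD. *Hk1* had a log2 fold change of 0.63.

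**Figure D5:**
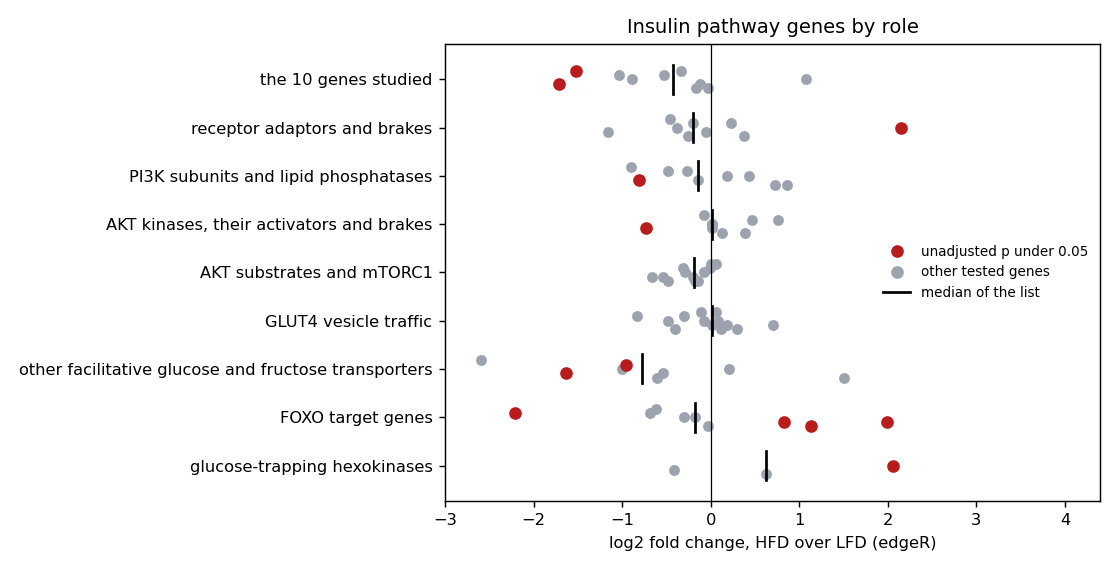
Log2 fold change (HFD over LFD, edgeR) of the 10 members (top row) and the 72 tested pathway genes, 1 point per gene, grouped by list, with a bar at each list's median and red points at an unadjusted p under 0.05. The lists straddle 0, from a median of -0.78 for the other transporters to 0.63 for the hexokinases, and *Grb14* has the highest value at 2.14.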

How the data were processed

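BAT RNA of 3 HFD and 3 LFD mice, grouped by sample title, was depleted of ribosomal RNA and sequenced as single-end reads. Per the labels, the authors trimmed reads with Trimmomatic 0.36 and quantified genes with RSEM 1.3.0 on GRCm38.p4. The deposited tables give expected counts and TPM, the latter already divided by effective length and scaled to library size by the authors. The strand setting is not given in the sources used here.

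Expected counts were rounded and fitted in edgeR 4.0.16 (R 4.3.3; TMM, filterByExpr, quasi-likelihood test, diet as the only term) over all 17670 genes that passed, with Benjamini-Hochberg adjustment over all of them. Calls were set at an adjusted p of 0.01 and 1.5 on the log2 fold scale, in either direction. Log2 CPM used a prior count of 2. Ratios of TPM were compared with exact two-sided permutation tests. DESeq2 1.42.0, limma 3.58.1, other scalings and filters, the replicate block and each mouse left out were alternatives. The fit was tested on simulated data.

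The labels number the mice 1 to 3 in each diet. Deviations from the diet means correlated at 0.229 to 0.522 for same-numbered libraries and at -0.528 to 0.0532 for others. The numbers served as pairs only in the replicate block and in comparisons of same-numbered mice. The main edgeR fit and the main permutation tests of the ratios are unpaired. Within each diet, no libraries repeated each other (chi-square per degree of freedom 71.7 to 558), and pairs across the diets were not checked this way. p-values measure the spread between these mice, 3 a diet.

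Members and lists were chosen with earlier results of these data known. All members were named, and of each pathway list the 2 genes with the lowest p. A result on 1 listed gene is not reported here. Coordinates are GENCODE's on GRCm38. Promoters are RefSeq's (GRCm38.p6), with 8 of 10 members matched. *Insr* and *Slc2a4* had no entry.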

Additional observations from a re-analysis of the deposited data

How the results depend on the processing

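No member and no pathway gene was called under any of the 16 alternatives run. Over all genes, edgeR made 0 calls, DESeq2 412 and limma 2. In the replicate block fit, *Irs1* (-1.47) and *Pik3r1* (-1.47) kept their sign at adjusted p of 0.0667 and 0.162, the log2 fold change of *Slc2a4* was -0.58, and that of *Akt1* was 0.0276 instead of -0.03. The block changed no call by the main rule, and it gave a smallest possible p of 0.25 for the ratios. Leaving out 1 mouse at a time moved *Akt1* from -0.20 to 0.33 (above 0 without HFD replicate 1, 0.04, and LFD replicate 3), *Akt2* from -0.47 to 0.49 (above 0 without HFD replicate 3, 0.16, and LFD replicate 1), *Slc2a4* from -1.56 to 0.26 and the *Akt1* to *Akt2* ratio from -0.51 to 0.99 (below 0 without HFD replicate 3, LFD replicate 1 and LFD replicate 2). The cause was not tested. Over the same fits *Irs1* ran from -1.82 to -1.20, *Pik3r1* from -2.13 to -1.16, *Slc2a1* from 0.73 to 1.47, the *Irs1* to *Irs2* ratio from -1.63 to -0.90 and the *Slc2a1* to *Slc2a4* ratio from 0.52 to 3.14, all on the log2 scale. On log2(TPM + 1), limma's median over all genes was -0.19, and the signs of all 10 members were those of the main fit. With 3 mice a diet, the SE was 0.23 to 1.03 per member. The lowest adjusted p of the main edgeR test over all genes tested was 0.170. Differences of any size thus went uncalled, and 0 calls among the members does not show that their differences were small.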
